A study of Mus musculus with 36 samples.

Results

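This report follows DNA methylation along Zfp467 in mouse embryonic brain, CpG by CpG. The members are all CpGs in the GENCODE gene body of Zfp467 (ENSMUSG00000068551.12, mm10, chromosome 6, 48427697 to 48445825, minus strand) and 5 kb on each side. At least 1 compared embryo covered 198 of these CpGs 5 times or more, out of 3203127 autosomal CpGs in the series. Zfp467 was chosen by the measured KO minus WT methylation difference, since a 1 kb tile in it ranked first among tiles with higher methylation (hyper) in KO on all diets and with no overlap between KO and WT embryos. The KO against WT values below are therefore descriptions, with no test.

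Individual brains of 129S6.Cg embryos carrying the Tet1 tm1Koh allele were profiled at E11.5 by reduced representation bisulfite sequencing (RRBS) with an oxidative step. The dams were Tet1 heterozygotes adapted to custom diets with excess (30 ppm), control (3 ppm) or depleted (0.1 ppm) folic acid (FA), so the embryos of a litter share a dam and a diet. By the study's methods every diet also held the antibiotic succinyl sulfathiazole (SST), controls included. WT, HET and KO embryos carry 2, 1 and 0 intact copies of Tet1 in every cell, and the allele is not restricted to the brain. By their labels there were 3 WT, 5 HET and 6 KO embryos on 30 ppm, 4, 3 and 5 on 3 ppm, and 2, 3 and 5 on 0.1 ppm. Following the study, HET replicate 2 on 0.1 ppm was left out, which left 35 embryos. Whole brain was read, so a change in the mix of cell types and a change within a cell type cannot be told apart.

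Methylation of cytosine in CpG pairs is copied to daughter strands after replication and is removed actively by TET enzymes, which oxidise 5-methylcytosine. Most CpGs in gene bodies are methylated, whereas dense CpG clusters at gene starts usually are not. The oxidative step removes the signal of 5-hydroxymethylcytosine, so that a level here is 5-methylcytosine alone, given as the percent of reads called methylated. Zfp467 encodes a zinc finger protein known for favouring fat over bone differentiation in marrow stromal cells.

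The CpGs that set the borders and the extremes of the KO gain are shown with their surroundings, since the gain is read base by base here. Each is given 5′ to 3′ on the plus strand of chromosome 6 (GRCm38, the assembly behind mm10), with the CpG itself in capitals. The gene runs on the opposite strand.
First CpG of the gain, chr6:48438270-48438299: cgccgctatgggccCGggagtgggcgacta
Last CpG of the gain, chr6:48439261-48439290: ccacccggacagcgCGattccacctagtgc
Largest KO minus WT difference among CpGs read in every embryo, chr6:48439207-48439236: ccggaaacgccgctCGcattcctcgcagcc
Smallest such difference, chr6:48438424-48438453: gaagaaggagcgctCGctggaggtggtgcg
Lowest KO level within the gain, chr6:48439071-48439100: agggacgctctccgCGgtggctgcgttggt
At the CpG with the largest difference (position 48439221) the level was 18.2% ± 12.1 (SD, n = 9) in WT, 26.4% ± 6.05 (n = 10) in HET and 81.7% ± 12.2 (n = 16) in KO. At the CpG with the smallest difference (48438438) it was 24.1% ± 12.4, 38% ± 6.83 and 71.3% ± 16.6. The CpG at 48439085 had the lowest KO mean of the gained stretch, 45.5% ± 22.3 (n = 14), and also the lowest WT mean, 3.79% ± 4.32 (n = 9). Without the 3 libraries described next, WT and KO means were 12.9 and 84.1% at the first of these CpGs, 18.2 and 74.7% at the second and 3.92 and 48.6% at the third.

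The genotype labels were checked at Tet1 first. A CpG of Tet1 (chromosome 10, position 62884019), found as the one that best separated 7 WT from 15 KO libraries, read 0 to 7.32% in these WT and 69.6 to 100% in these KO embryos. The other 3 libraries had been kept out of that choice because an earlier look at these data found their methylation at differential regions off their label. At this CpG too they lay outside the range of their label. KO replicate 1 on 30 ppm read 45% on 20 reads (95% Wilson interval 25.8 to 65.8%), WT replicate 2 on 30 ppm 36.36% on 33 reads (22.2 to 53.4%), and WT replicate 2 on 0.1 ppm 40% on 15 reads (19.8 to 64.3%). HET embryos spanned 8.33 to 69.2%. These 3 libraries stay under their labels, and the main results that hold them are also given without them. The study's own sample list gives the embryo of KO replicate 1 on 30 ppm as HET, against its label, and the other 2 as WT. As the 3 were first set apart by methylation, narrower ranges without them are partly a product of that choice. The 36 libraries held 23.2 to 197 M (M, 1e6) CpG calls, and such intervals cover counting error only.

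Among the CpGs that could be compared, the gain in KO fell in a single stretch of 992 bp. CpGs were compared where at least 3 KO and 3 WT embryos covered them 5 times or more, which 154 CpGs did. KO exceeded WT by at least 20 points at 87 of them, and these 87 formed a single unbroken run from 48438284 to 48439275. Their differences ranged from 41.6 to 75 points. None of the other 67 CpGs reached 20 points, and their differences ranged from -5.30 to 11.1. The mean over the 87 CpGs was 21.7% in WT, 33.9% in HET and 78.2% in KO, and 17.3% in WT and 81.4% in KO without the 3 libraries.

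**Figure D1:**
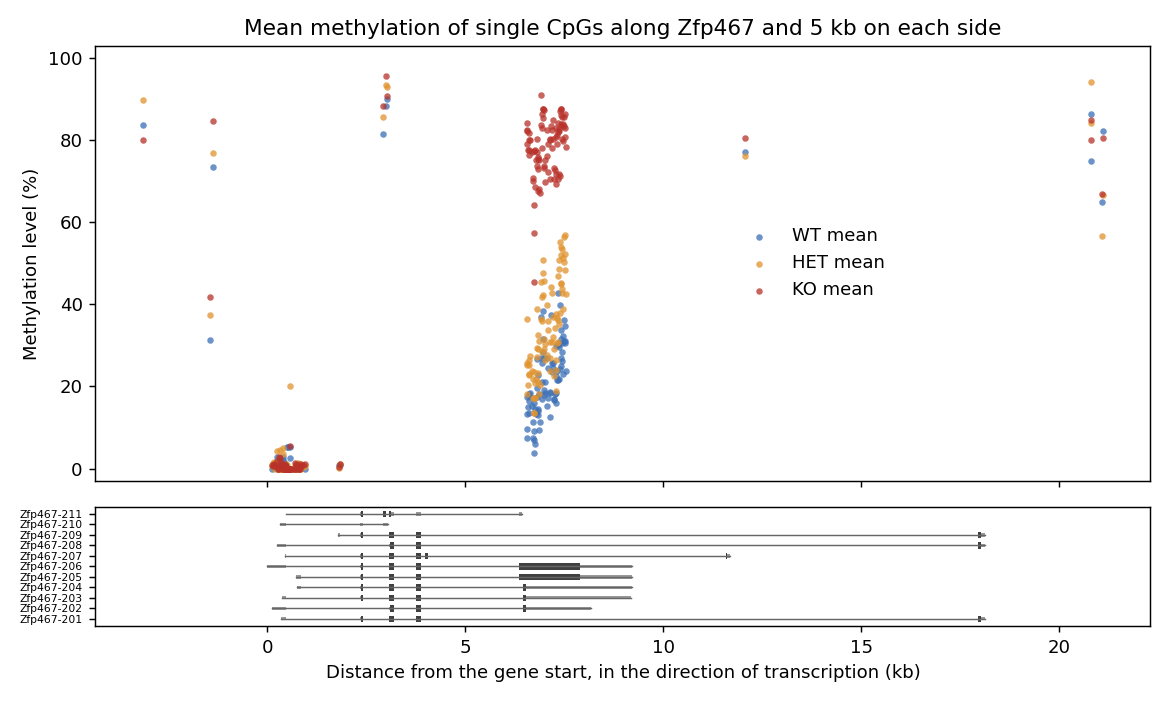
Mean methylation level (%) of the 154 compared CpGs against distance from the GENCODE gene start (kb, in the direction of transcription), for WT, HET and KO embryos of all diets, above the 11 annotated transcripts (dark boxes, coding; grey boxes, other exons). The genotypes separate between 6550 and 7541 bp, where the mean difference between KO and WT was 56.5 points, while outside it the difference between KO and WT stays between -5.30 and 11.1 points at every compared CpG. HET lies apart at 1 CpG of the gene start (20%, from 1 embryo) and 1 beyond the gene end (66.7% against 82.2% in WT).

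The CpG-dense gene start did not take part. The 56 compared CpGs between 48443985 and 48445699 had mean levels of 0.771% in WT, 0.982% in HET and 0.652% in KO, and their KO minus WT differences lay between -5.30 and 3.06 points. Between the gene start and the gained stretch, 3 CpGs (48442796 to 48442898) in an exon of the non-coding Zfp467-210, the last also in the coding sequence of Zfp467-211, were at 86.6% in WT, 90.7% in HET and 91.6% in KO. Downstream of the stretch the single compared CpG of the gene body (48433765) was at 77.1% in WT and 80.5% in KO, and 4 CpGs beyond the gene end had means of 77.1% and 78.1%. The stretch was thus lower than its methylated surroundings in WT, and close to their level in KO. Upstream of the gene, 3 CpGs differed by -3.54 to 11.1 points.

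In the annotation the stretch lies in a large exon of 5 of the 11 transcripts. All 87 CpGs fall in the coding sequence of Zfp467-205 and Zfp467-206, where it spans 48437935 to 48439454, and in the 3′ untranslated part of 3 other transcripts, so that its annotation depends on the transcript. It is 65.8% G and C, its CpG frequency is 0.848 of that expected from its base composition, and it holds 10 CCGG sites for MspI and 0 TCGA sites for TaqI, the enzymes that set which fragments RRBS reads. All 89 CpGs of the reference sequence between the borders were covered in at least 1 embryo, so no CpG inside went unread.

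The borders themselves were not observed. The next compared CpG lay 4519 bp away on the side of the gene end and 3521 bp away toward the gene start, with 70 and 35 reference CpGs in these gaps, of which 21 and 3 had reads in any embryo compared. On the side of the gene end, 21 CpGs between 48438016 and 48438273 had reads, but in KO never more than 4 at a CpG. Pooled over these CpGs, 366 calls from 6 KO libraries were methylated in 76.0%, against 41.6% of 985 calls in 6 WT libraries and 33.1% of 414 calls in 6 HET libraries. Calls on a read are not independent, and single libraries ranged from 52.7 to 96.8% in KO, from 0 to 78.6% in WT and from 10.9 to 95% in HET, so that these ranges overlapped.

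Nearly the same stretch was found on each diet. On 3 ppm it ran from 48438284 to 48439255, with a gain of at least 20 points at 84 of 84 compared CpGs and a mean of 65.6 points, while 1 CpG outside it also passed 20 points, at 25.1. On 30 ppm the ends were the same, with 79 of 84 CpGs past 20 points and a mean of 41.6 points. On 0.1 ppm it ran from 48438294 to 48439255 with 72 of 72 CpGs and a mean of 58.6 points, and cannot be given without WT replicate 2, which leaves 1 WT embryo. The 30 ppm mean was 57.7 points over 65 of 65 CpGs when the 3 libraries were left out. With all diets together, the values nearest to the 20 point limit were 41.6 points inside and 11.1 points outside the stretch.

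For single embryos, the 34 CpGs of the stretch that all 35 embryos covered 5 times or more were averaged, here called the block level. It rests on 706 to 4874 CpG calls per embryo. Calls on a read are not independent, so intervals from pooled calls are too narrow. On 3 ppm the WT embryos had 18.0, 21.8, 20.2 and 20.5%, the HET embryos 39.7, 46.2 and 43.8%, and the KO embryos 85.3, 84.2, 83.4, 86.7 and 87.3%. The genotypes did not overlap on this diet. On 30 ppm the WT embryos had 22.3, 41.9 and 16.6%, the HET embryos 37.2, 37.6, 45.7, 29.4 and 43.6%, and the KO embryos 40.9% at the lowest, 76.2% at the median and 82.2% at the highest. On 0.1 ppm the WT embryos had 16.8 and 49.0%, the HET embryos 37.3 and 38.9%, and the KO embryos 84.3, 87.7, 88.3, 87.2 and 85.5%.

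The libraries that crossed their neighbours were the 3 with discordant Tet1 levels. KO replicate 1 on 30 ppm (40.9%, 95% Wilson interval of its pooled calls 37.8 to 43.74%) and WT replicate 2 on 30 ppm (41.9%, 39.5 to 44.4%) lay inside the HET range of 29.4 to 46.2%. WT replicate 2 on 0.1 ppm, at 49.0% (46.3 to 52.1%), lay above every compared HET embryo and below the remaining KO embryos. Without these 3, the 7 WT embryos lay between 16.6 and 22.3% and the 15 KO embryos between 72.4 and 88.3%, and the 3 genotypes were apart.

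**Figure D2:**
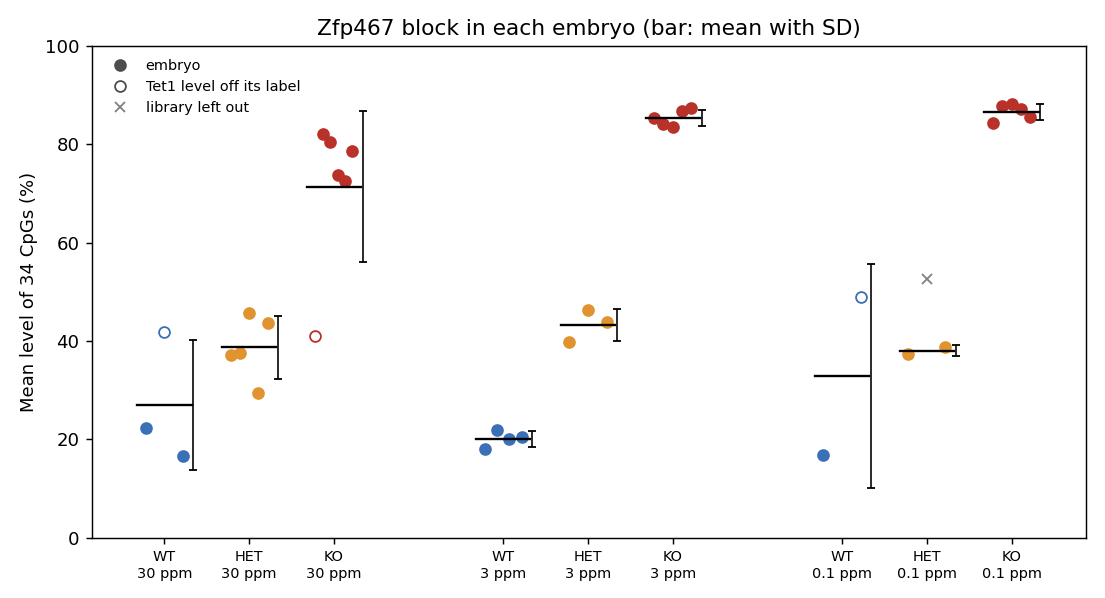
Block level (%, mean of the 34 CpGs covered in all embryos) of each embryo by genotype and diet, with the mean and SD of each group; open circles are the 3 libraries whose Tet1 level is off their label and the cross is the HET library left out. Filled WT circles reach 22.3%, filled HET circles span 29.4 to 46.2% and filled KO circles start at 72.4%.

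For the block means by diet, KO was 71.4% ± 15.4 (n = 6) against 26.9% ± 13.2 (n = 3) in WT on 30 ppm, 85.4% ± 1.64 (n = 5) against 20.1% ± 1.59 (n = 4) on 3 ppm, and 86.6% ± 1.67 (n = 5) against 32.9% ± 22.8 (n = 2) on 0.1 ppm. KO minus WT was thus 44.5, 65.3 and 53.7 points. Without the 3 libraries it was 58.0 points on 30 ppm (77.5 against 19.5%) and 69.8 points on 0.1 ppm (86.6 against 16.8%, a single WT embryo). Both 1 kb tiles that hold the stretch were called hyper in KO on all 3 diets. For the tile from 48439001 to 48440000 this is how the gene was chosen. The tile beside it holds the rest of the stretch in the same embryos, so its calls are no separate support. Its KO and WT embryos overlapped on 30 ppm. The call requires an adjusted p under 0.05 and a difference of 10 points, and 5.66% of tested tiles met it in this direction on 30 ppm, 16.3% on 3 ppm and 11.2% on 0.1 ppm. Every KO embryo exceeded every WT embryo at 3 of the 34 CpGs, a pattern found at 0.219% of 921363 autosomal CpGs covered in all embryos. With the 3 libraries left out it held at 34 of 34, against 1.85% of CpGs.

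HET means lay between those of WT and KO. This was so at 34 of 34 CpGs, with all labels and without the 3 libraries, against 28.8% and 30.9% of autosomal CpGs. In the 32 embryos that remain without the 3 libraries, every HET embryo lay between every WT and every KO embryo at 17 of the 34 CpGs, against 0.00901% of CpGs (83 of 921363). With all labels this was so at 0 of 34. The gene was chosen for a wide gap between WT and KO, which leaves HET room to fall between them, so nothing is read from these shares.

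On no diet did the HET mean reach the midpoint between WT and KO. Expressed as a percent of the KO minus WT difference, the HET block level on 3 ppm stood at 35.44% ± 5.03 (n = 3, 30.04 to 39.98%). Without the 3 libraries it was 33.2% ± 10.96 on 30 ppm (n = 5, 17.2 to 45.2%) and 30.5% ± 1.64 on 0.1 ppm (n = 2). With all labels these were 26.5% ± 14.3 and 9.61% ± 2.13, since both WT means then contain a high library.

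The HET against WT difference was tested across all tiles, HET embryos having had no part in choosing the gene while the WT embryos did. Since that choice favours tiles where these WT embryos are low, the p-values and calls are not independent of it and may be too strong. In the tile with the largest KO difference (48439001 to 48440000), HET rose on 3 ppm by 13.6 points, from 12.8% ± 3.46 (n = 4) to 26.4% ± 7.80 (n = 3; moderated quasi-binomial test, adjusted p = 6.16e-06). In the tile beside it (48438001 to 48439000) HET rose by 24.2 points, from 21.04% ± 1.85 to 45.2% ± 1.96 (adjusted p = 5.99e-21). These are 2 of 556 tiles hyper in HET on 3 ppm, 0.805% of those tested. The WT and HET embryos did not overlap in either tile, but the share of all tiles without overlap was not counted. Over all tested tiles the median difference was 2.15 points. The dispersion behind the p-values of these 2 tiles came mostly from all tiles together (prior 49.9 against 5 residual degrees of freedom). The spread between the 7 embryos in a tile thus had little part in them. The first call was lost without HET replicate 2, where the difference was 9.51 points, and the tile beside it stayed called when each of the 7 embryos was left out in turn.

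On 30 ppm neither tile was called in HET, with differences of 7.72 points (adjusted p = 0.819) and 12.3 points (adjusted p = 0.589). The test called 0 of 64629 tiles there (0%), and 638 tiles differed by 10 points or more with an unadjusted p under 0.05. Without WT replicate 2 the differences were 11.6 and 19.5 points. That library was first set apart by its methylation at differential regions. The larger differences are thus partly a product of leaving it out and are given without a p. With litter as a block and all labels, the tile beside it was called (11.9 points, adjusted p = 0.00236). Only litters 36 and 41 held both genotypes in that fit, with block level differences of 19.1 and 1.74 points. The share of all tiles that it called was not counted. On 0.1 ppm the differences were -0.0445 points (adjusted p = 0.940, 8.16 points with each CpG weighted equally) and 5.84 points (adjusted p = 0.00325), under the 10 points of a call, while 0.0872% of tiles were hyper. In this comparison all tiles shared 1 dispersion, so that the wide spread of the 2 WT embryos in these tiles had no part in the p-values. The exact permutation p was 1 for both tiles. With the excluded HET replicate 2 the tile beside it differed by 10.8 points, past the 10 points of a call. Without WT replicate 2 the differences were 14.4 and 21.95 points, against a single WT embryo, which was assumed to vary like the others.

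The block levels were also compared by exact tests, which cannot reach small p-values with so few embryos. HET exceeded WT by 23.1 points on 3 ppm and 3 of 3 HET embryos did so (two-sided exact permutation p = 0.0286, the lowest this design allows, adjusted p = 0.0952 over 10 comparisons). On 30 ppm the difference was 11.8 points, where each of the 5 HET embryos exceeded the mean of WT but 3 were below WT replicate 2 (exact permutation p = 0.143, adjusted p = 0.357). Without WT replicate 2 it was 19.2 points, partly a product of leaving that library out. On 0.1 ppm 2 against 2 embryos allow no p below 0.333. Within litters, HET exceeded its WT littermates by 26.3 points in litter 40 and 23.6 in litter 45 on 3 ppm, by 19.1 in litter 36 on 30 ppm and by 20.4 in litter 34 on 0.1 ppm. In litter 41, whose WT embryo is replicate 2 on 30 ppm, the difference was 1.74 points.

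Levels were also compared along the block. The 34 CpGs fall into 3 segments, 20 CpGs nearest the gene end (48438294 to 48438472), 7 in the middle (48438737 to 48438831) and 7 nearest the gene start (48439190 to 48439255). Without the 3 libraries, HET had 48.3% ± 5.83 in the segment nearest the gene end, 31.6% ± 5.00 in the middle and 24.5% ± 8.20 nearest the gene start (n = 10). WT had 23.8% ± 2.72, 15.4% ± 3.36 and 11.3% ± 3.78 (n = 7), and KO 85.3% ± 5.39, 78.3% ± 6.60 and 81.9% ± 6.84 (n = 15). HET thus stood at 41.6% ± 9.89, 25.6% ± 8.16 and 19.7% ± 10.9 of the KO minus WT difference in these segments. With all labels it stood at 34.7% ± 15.7, 18.3% ± 12.9 and 11.3% ± 16.8.

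The segment nearest the gene end exceeded that nearest the gene start by 23.8 points ± 7.35 in HET (15.9 to 40.16), by 12.5 points ± 2.88 in WT (7.63 to 17.1) and by 3.38 points ± 5.94 in KO. The HET excess was above that of WT by 10.7 points within diets, and by 10.1 points with all labels. The segments were compared after the profile had been seen, so these are descriptions with no test.

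**Figure D3:**
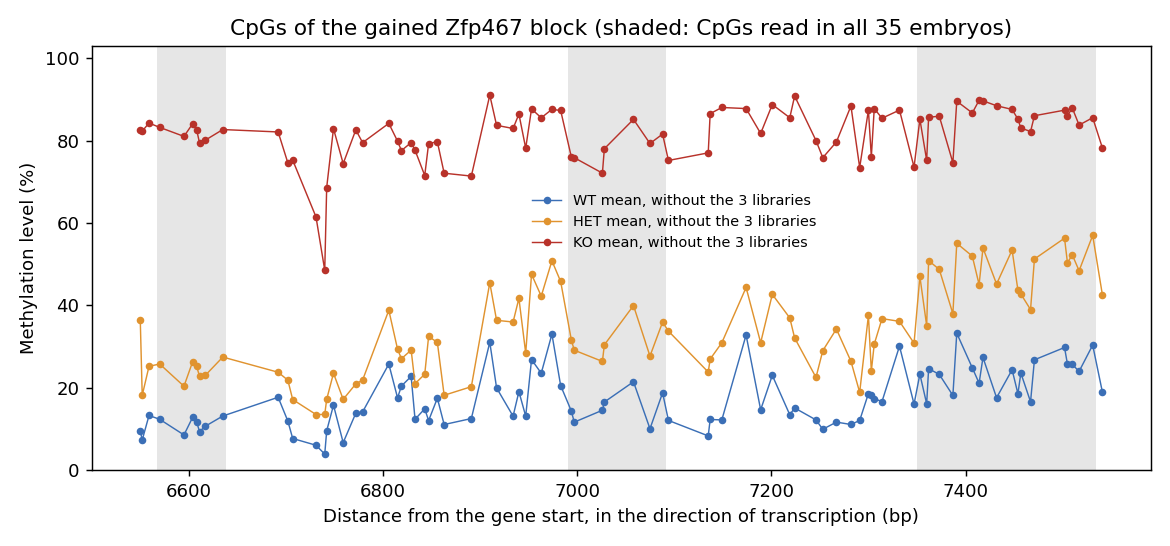
Mean level (%) of the 87 CpGs of the gained stretch against distance from the gene start (bp), for WT (n = 7), HET (n = 10) and KO (n = 15) without the 3 libraries; shading marks the segments read in all 35 embryos. HET lies further above WT in the right segment, nearest the gene end, than in the left, and KO dips to its lowest level at the CpG where WT is lowest.

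**Figure D4:**
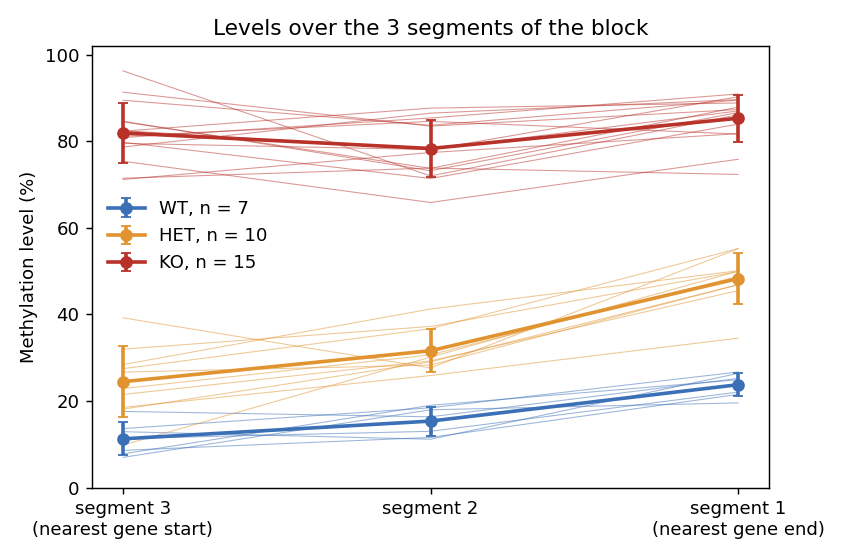
Level (%) of single embryos (thin lines) and mean with SD (thick) in the 3 segments of the block, without the 3 libraries. HET means climb from 24.5 to 48.3% toward the gene end and WT means from 11.3 to 23.8%, while KO means stay between 78.3 and 85.3%.

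Diet was compared next within each genotype, a contrast by which the gene was not ranked. The choice did use the KO and WT values of every diet, so the p-values in KO and WT are not independent of it. KO embryos on 30 ppm were lower than those on 3 ppm. The 6 embryos, 40.9 to 82.2%, all lay below the 5 embryos on 3 ppm, 83.4 to 87.3%, a difference of -14.0 points (two-sided exact permutation p = 0.0130, adjusted p = 0.0649 over 10 comparisons). Without KO replicate 1 it was -7.91 points, 77.5% ± 4.25 (n = 5) against 85.4% ± 1.64 (n = 5; exact permutation p = 0.00794, the lowest this design allows, adjusted p = 0.0397). By litter means, 4 litters on 30 ppm (61.5, 80.5, 73.1 and 78.7%) lay below 4 litters on 3 ppm (84.7, 86.7, 83.4 and 87.3%; exact permutation p = 0.0286, the lowest this design allows, adjusted p = 0.171 over 6 comparisons). Without KO replicate 1 the lowest of these 30 ppm litters stood at 82.2%. The difference between litter means was then -6.97 instead of -12.1 points.

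Across all tiles this difference was not called. It was -17.6 points in the tile with the largest KO difference and -12.9 in the tile beside it (quasi-binomial test, adjusted p = 0.695 for each), with overlapping embryos in both, and -10.7 and -5.47 points without KO replicate 1. The test called 0 of 64989 tiles (0%), and 728 tiles differed by 10 points or more with an unadjusted p under 0.05. The median difference over all tested tiles was -1.35 points, and in 0.497% of them every 30 ppm embryo lay below every 3 ppm embryo. Each litter had a single diet, so diet can be set only against the spread between litters, as in the comparison of litter means.

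On 0.1 ppm the KO block level differed from 3 ppm by 1.20 points (exact permutation p = 0.278, adjusted p = 0.397), and the embryos overlapped. The tile differences were -3.17 and 2.43 points (adjusted p = 0.95 and 0.92), in a test that called 0 of 59941 tiles (0%), and 436 tiles had an unadjusted p under 0.05 and 10 points or more. In WT, 30 against 3 ppm gave 6.82 points in the block (exact permutation p = 0.4) and -0.639 without WT replicate 2. Of 59101 tiles 0 were called (0%; 320 at an unadjusted p under 0.05 and 10 points). For 0.1 against 3 ppm in WT the block difference was 12.8 points (exact permutation p = 0.333), from 2 embryos at 16.8 and 49.0%, and -3.29 points without the one at 49.0%. In the tile with the largest KO difference it was 10.5 points (adjusted p = 0.474, 1.66 points with each CpG weighted equally) and in the tile beside it 12.4 points (adjusted p = 0.0653), and 0.131% of tiles were called. The tile beside it was called in 5 of 6 fits that left out 1 embryo, all 5 holding WT replicate 2 on 0.1 ppm. Without WT replicate 2 on 3 ppm the difference was 12.7 points, yet the adjusted p of the quasi-binomial test fell to 2.08e-09. The p-values of this comparison thus change strongly between fits, and nothing is read from these calls. Without WT replicate 2 on 0.1 ppm the sign turned in both tiles (-4.14 and -3.42 points).

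In HET, 30 and 0.1 ppm differed from 3 ppm by -4.54 and -5.18 points in the block (exact permutation p = 0.25 and 0.2). Neither tile was called in either comparison, where 0.0201% and 0.0866% of tiles were. In the tile with the largest KO difference, subtracting the KO minus WT difference of the 3 ppm diet left -21.8 points for 30 ppm and -17.7 points for 0.1 ppm. These values are built from the differences that chose the gene and are given without a p. An interaction test over all tiles called 0% of 57098 and 0% of 58052 tiles, and 1445 and 1302 tiles had an unadjusted p under 0.05 and 10 points or more. Without the 3 libraries, these values were -9.12 points for 30 ppm and 0.0111 points for 0.1 ppm.

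Among KO embryos, those with a neural tube defect (NTD) were set against those labelled normal, within diets. The 4 KO embryos with the label inHB, among them KO replicate 1 on 30 ppm, were in neither group. The study's sample list gives all 4 as brain malformation, and gives that replicate as HET. On 30 ppm the NTD embryos had block levels of 82.2 and 80.5% and the normal embryos 72.4 and 78.7%. On 3 ppm the NTD embryo had 87.3% and the normal embryos 85.3, 84.2 and 83.4%, and on 0.1 ppm the values were 88.3 and 87.2% against 84.3 and 85.5%. By block level, each NTD embryo was thus above each normal embryo of its diet, by 3.97 points on average (two-sided exact permutation within diet, p = 0.00694, the lowest this design allows, adjusted p = 0.0649 over 10 comparisons). Adjusted with the 9 other comparisons run without the 3 libraries, the same p gave 0.0397. How many other CpGs or tiles show such a separation was not counted, so it is not read as particular to Zfp467. No litter held both NTD and normal KO embryos, so phenotype and litter cannot be told apart. By litter means, 4 NTD litters exceeded 6 normal litters by 4.22 points within diets (exact permutation p = 0.0185, the lowest this design allows). In the tile with the largest KO difference the diet-adjusted difference was 3.21 points (adjusted p = 0.822, 0.102 points with each CpG weighted equally), under the 10 points of a call, which 0.00605% of tiles met. It was 1.36 points in this tile and 1.58 in the tile beside it (3.17 with all embryos) without the normal KO replicate 5 on 30 ppm. The separation of single embryos did not hold throughout in either tile. On 3 ppm the NTD embryo had 81.7% in the tile with the largest KO difference, and the normal embryos 86.8, 78.0 and 84.2%. On 0.1 ppm an NTD embryo had 86.5% in the tile beside it, below a normal embryo at 87.3%. The separation held on 30 ppm in both tiles and on 3 ppm in the tile beside it. None of the 3 libraries is in this comparison.

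The tiles around Zfp467 had smaller KO minus WT differences, which was largely fixed by choosing the gene for its first-ranked tile in this contrast. Of the 24 other genes within 250 kb of either end, 18 had a tested tile in the gene or 5 kb beside it on at least 1 diet, and 1 had a called tile, AI854703, a protein-coding gene 180939 bp upstream. That tile differed by 21.9, 24.0 and 25.8 points on 30, 3 and 0.1 ppm. The other tested tiles of the interval, 16 to 20 per diet with that of AI854703, had median differences of 1.08, 4.02 and 3.26 points, and 1 of 18, 1 of 16 and 1 of 20 was hyper, beside 5.66, 16.3 and 11.2% over all tiles. The gene start of Sspo lies 2404 bp upstream of Zfp467 on the opposite strand, and 0 of its 2 to 3 tested tiles were called.

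**Figure D5:**
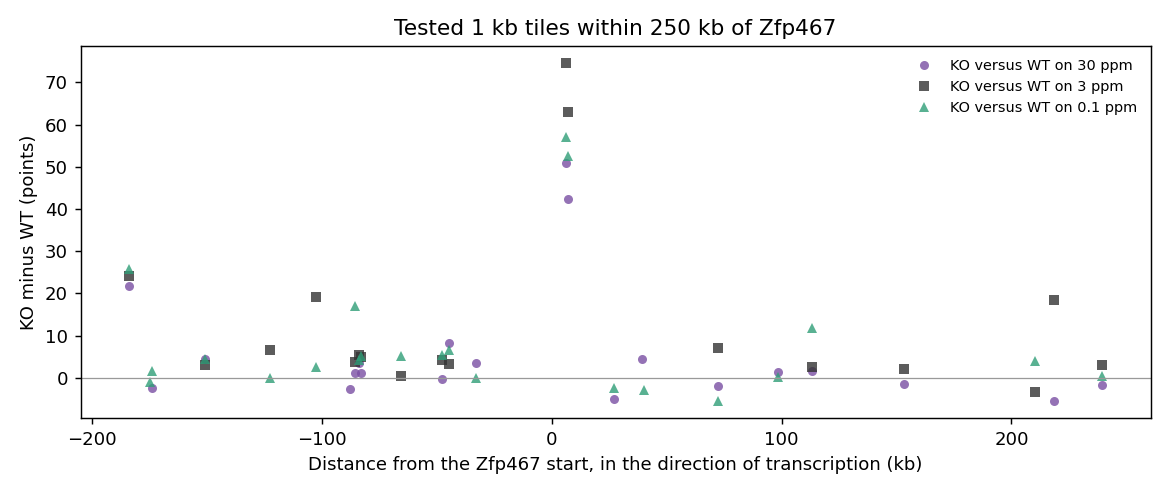
KO minus WT difference (percentage points) of every tested 1 kb tile within 250 kb of Zfp467, by distance from its start (kb, in the direction of transcription), on each diet. The 2 tiles of the gained stretch lie between 42.4 and 74.7 points, above every other tile of the interval, of which the highest is 25.8. The choice of the gene largely fixed this order.

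The tiles whose level followed the Zfp467 tile most closely over the 35 embryos were ranked among 74132 tiles, as a description of points that share genotype groups and libraries. They lay nearest to the starts of Cct7, a chaperonin subunit (Pearson r = 0.98, the tile being inside Fbxo41), Krt79, a keratin (r = 0.979), Ank1, an ankyrin (r = 0.975), Iqsec3, a synaptic exchange factor (r = 0.975), and Kcnc1, a potassium channel (r = 0.972). In these 5 tiles HET means (20.96 to 54.3%) were between WT (15.7 to 46.3%) and KO means (46.1 to 78.8%). The second tile of Zfp467 itself had r = 0.967.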

How the data were processed

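The authors deposited, per library, the fraction of reads called methylated and the read count at each CpG. Per the labels and the study's methods, MspI and TaqI digested libraries were trimmed (Trim Galore 0.6.10), aligned to mm10 (Bismark 0.24.1) and deduplicated by molecular identifier (UMI-tools), and both strands of a CpG stand on 1 line. Fraction times count, whole within 1e-06 everywhere, gave the methylated reads. Positions, counted from 0 in the files, were raised by 1, and all 177316 on chromosome 6 then matched a CG of GRCm38. The authors' region lists of their own comparisons were not used.

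For each comparison, CpGs with 5 or more reads in every embryo were summed in 1 kb tiles with at least 3 CpGs and an SD of at least 2 points. Each tile was fitted by quasi-binomial logistic regression, with dispersions of at least 1, moderated across tiles by limma's squeezeVar method, and p-values were adjusted over all tiles (Benjamini-Hochberg). Calls needed an adjusted p under 0.05 and 10 points. The test was checked on simulated tiles, where it kept near its nominal error rate when the read dispersion was the same at every depth. It exceeded that rate, for HET against WT on 3 ppm among others, when dispersion rose with depth, so adjusted p-values may be too small. A gained CpG needed 20 points, and the stretch was the longest run of gained CpGs, with single exceptions allowed between them (within a diet, from at least 2 KO and 2 WT embryos). Block levels were compared by exact permutation tests, by embryo and by litter, which were chosen after seeing the data, as were the NTD comparison by litter, the comparison of segments and the use of the second tile. Litter, from the titles, was used as the block, since littermates share a dam. Named genes followed a rule: Zfp467, the 5 genes outside it with the most similar tile, and neighbours with a called tile. Gene models were GENCODE M21, and tools were Python 3.11.15, numpy 2.4.6 and scipy 1.17.1. The gene and lists were chosen with earlier results of these data known. Nothing says that embryos of a litter vary as independent samples do. For HET against WT on 0.1 ppm and 0.1 against 3 ppm in HET, all tiles shared 1 dispersion, so a tile's own spread between embryos had no part in its p-value.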

Additional observations from a re-analysis of the deposited data

Results flagged for a closer look

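In KO embryos on 30 ppm, replicate 1 was far from the other 5. Its block level was 40.9%, and it also stood apart in the segment nearest the gene end (44.7%) and in that nearest the gene start (34.2%), by Dixon's test in 20 groups and measures, where chance alone flags about 1 in 20. The study's sample list gives this embryo as HET, and its block level lay inside the HET range of 29.4 to 46.2%. The part of its discordant Tet1 level in this was not tested.

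The library left out by the study, HET replicate 2 on 0.1 ppm, had a block level of 52.6% on 645 CpG calls (95% Wilson interval of pooled calls 49.3 to 57%). This interval is too narrow, as calls on a read are not independent. The level was above every compared WT and HET embryo and below 15 of 16 KO embryos. Its Tet1 CpG read 35.7% on 14 reads.

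Reads at 21 CpGs next to the stretch were methylated in 76.0% of KO calls, 41.6% of WT calls and 33.1% of HET calls, and the library ranges overlapped. The KO reads stayed below the coverage minimum, while 4 WT libraries and 1 HET library met it at 10 or more of these CpGs. These reads entered no comparison.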

How the results depend on the processing

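The 264 alternatives counted here leave out those of the tile beside that with the largest KO difference. Of them, 12 were counted as reversed, 8 as stronger, 3 as moved and 1 as weaker. Apart from fits that left out 1 embryo there were 67, of which 6 were reversed. Of the 264 alternatives, 240 kept the side of the threshold and the direction, or moved a value by less than the spread between embryos. Of these, weighting each CpG of the tile with the largest KO difference equally turned the sign of 30 against 3 ppm in WT (-1.61 points) and of HET against WT on 0.1 ppm (8.16 points), and gave 1.66 points for 0.1 against 3 ppm in WT, 0.102 for NTD and -0.626 for 0.1 against 3 ppm in HET. Without the 3 libraries, the tile with the largest KO difference gave 11.6 points for HET against WT on 30 ppm and 14.4 on 0.1 ppm, the latter against 1 WT embryo. It gave -2.48 and -4.14 points for 30 and 0.1 against 3 ppm in WT, 0.0111 points for the 0.1 ppm difference in the KO effect, and a HET position of 30.5% on 0.1 ppm. With HET replicate 2 on 0.1 ppm, HET against WT was 6.52 points and 0.1 against 3 ppm in HET 3.26 points (in the tile beside it, 10.8 and 0.194). That tile gave -3.42 points for 0.1 against 3 ppm in WT and 5.82 points for the 0.1 ppm KO effect without the 3 libraries. A coverage of 10 gave 14.5 points for 0.1 against 3 ppm in WT, which was then called (as was the tile beside it, 12.7 points, adjusted p = 0.000334). For 30 against 3 ppm in KO, the exact permutation test of the tile with the largest KO difference gave p = 0.0216 (-17.6 points). This p is not adjusted for other tiles or comparisons, so it is not a call as defined above. The adjusted p of the quasi-binomial test there was 0.695. The causes were not tested.

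Leaving out single embryos gave ranges of 9.51 to 17.3 points for HET against WT on 3 ppm (lost without HET replicate 2), 4.22 to 11.6 on 30 ppm and -14.5 to 14.4 on 0.1 ppm, and a HET position of -29.1 to 30.5% on 0.1 ppm. For diets they gave -4.14 to 24.9 points (0.1 against 3 ppm in WT), -2.48 to 4.89 (30 against 3 ppm in WT), -7.03 to 0.725 (0.1 against 3 ppm in HET), -35.3 to 0.0111 (0.1 ppm KO effect) and -20.3 to -10.7 (30 against 3 ppm in KO). For NTD they gave 1.36 to 4.89 points, and 1.58 to 4.16 in the tile beside it. The 0.1 ppm WT comparison was called without WT 3 ppm replicate 2 (11.2 points) or WT 3 ppm replicate 4 (11.6), where WT replicate 2 on 0.1 ppm was kept. Without WT replicate 1 on 0.1 ppm it was 24.9 points, from WT replicate 2 alone. In the tile beside it, 0.1 ppm ranges were -3.42 to 27.2 points (diet in WT, called in 5 of 6 fits), -9.15 to 21.95 (HET against WT) and -26.4 to 5.82 (KO effect). WT on 30 against 3 ppm was called there without WT replicate 1 (10.9 points) or 3 (13.4) on 30 ppm. Both fits held WT replicate 2 on 30 ppm, at 44.0% in this tile against 24.1 and 19.1%, whose Tet1 level is off its label. Without that library the block difference was -0.639 points. The share of all tiles called in these fits was not counted, and nothing is read from these calls. A lone remaining embryo was assumed to vary like the others. The stretch held 84 to 87 gained CpGs, and its last CpG was 48439266 at a coverage of 10 and between 48439255 and 48439275 with single embryos left out. With litter as the replicate block, HET against WT was 8.23 (adjusted p = 0.151) points on 30 ppm and 19.5 (called) on 3 ppm in the tile with the largest KO difference. These differences rest on litters with both groups, 36 and 41 on 30 ppm and 40 and 45 on 3 ppm. HET replicate 1 on 3 ppm (litter 42), the lowest HET embryo of that diet in this tile at 19.1%, thus had no part. The share of all tiles called in these fits was not counted. On 0.1 ppm no paired analysis was possible because only 1 litter held both groups. Most CpGs of the gaps beside the stretch had no reads, and where KO embryos had reads there, they stayed under the minimum.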
